A study of Mus musculus with 9 samples.

Results

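The transcriptome of growing oocytes from XX female mice was measured in 3 pools, XX1, XX2 and XX3, which are 3 of the 9 samples of a study of XX, XO and XY oocytes. All samples whose labels give the genotype XX were taken, and no comparison with the other genotypes was made. The XX females were littermates of XY females from crosses between B6.Y TIR males, which carry a Y chromosome of another origin on the C57BL/6 background, and C57BL/6 females, and they were 18 days old. Each pool held 30 oocytes, 10 of 50 to 55 µm and 20 of 55 to 60 µm in diameter, which had been picked by size after the ovaries were dissociated with collagenase and trypsin. The labels name no drug or other treatment of the animals. The pools are biological triplicates per the labels, so that each value below comes from a mixture of oocytes and says nothing about differences between single oocytes.

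An oocyte in the growth phase is arrested in meiotic prophase and transcribes genes actively while it enlarges inside its follicle. It builds the zona pellucida, the glycoprotein coat that sperm must cross, sends growth factors to the granulosa cells around it, and stores RNA and protein for meiosis and for the first divisions of the embryo. It takes up pyruvate and other metabolites from granulosa cells and uses little glucose itself. Many genes used at this stage lie in rodent-specific clusters of near-identical copies.

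Libraries were made with Smart-seq3, a full-length method that tags the 5′ end of each cDNA with a unique molecular identifier (UMI). The level of a gene is given as normalized CPM, which is its number of 5′ UMIs scaled by the authors with the library total and the ERCC spike-ins. Since each UMI marks 1 captured molecule whatever its length, levels of different genes were compared on this scale without dividing by length. Whether 5′ ends were captured equally well in different genes was not tested. The pools had 2494515, 2447443 and 2632585 UMIs on genes and 19825, 19038 and 19712 genes with at least 1 UMI. In XX1, XX2 and XX3, 1 UMI was worth 0.356, 0.350 and 0.305 normalized CPM, respectively. A total of 3 UMIs over the 3 pools, the limit that a count of 0 allows, was worth 0.337. These limits cover counting error only.

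In the values used here, XX3 stood apart from the other pools. The paper's own check instead named XX1 as the XX pool less similar to the others. That check used the Spearman correlation of highly expressed and most variable genes, and the paper regressed out batch effects for clustering. The reason for this difference was not tested. Among the 4953 genes with a mean of at least 50 UMIs a pool, log2 levels in XX1 and XX2 had a Pearson correlation across genes of 0.985, compared with 0.936 for XX1 and XX3 and 0.927 for XX2 and XX3. A difference of 2-fold or more was seen in 30 of these genes between XX1 and XX2 and in 306 and 452 genes when XX3 was compared with XX1 and XX2, respectively. The share of spike-ins among all UMIs was 0.204% in XX3, as against 0.478% in XX1 and 0.617% in XX2. Whether the share of spike-ins has a part in the differences of XX3 was not tested. The values of all pools are therefore given for the main genes, and results that rest on XX3 are given with and without it.

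The identity of the cells was checked with 5 genes known from oocytes. Nlrp5, also called Mater, which encodes a maternal protein needed by the early embryo, had 3751, 3012 and 3785 normalized CPM in XX1, XX2 and XX3. Dppa3, which encodes a protector of maternal DNA methylation, had 2460, 2357 and 3595. Ooep of the same maternal complex as Nlrp5 had 588, 535 and 774, and the growth factor gene Gdf9 had 252, 272 and 319. The zona pellucida gene Zp3 was lower, at 64.5, 49.0 and 155. All 5 markers were therefore found in every pool, and their levels spanned a range from 89.4 ± 57.1 (SD, n = 3) for Zp3 to 3516 ± 437 for Nlrp5.

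No marker of other ovarian cells exceeded 39.9 normalized CPM, but as a set these markers were detected about as often as all genes. Of 49 named markers of granulosa cells, theca and steroid cells, stroma and endothelium, and immune and blood cells, 31 were in the normalized table, 12 had at most 3 UMIs over all pools, and 6 had none. Of all 28051 genes, 10872 had at most 3 UMIs and 4549 had none, which are shares near those of the markers. At least 10 normalized CPM was reached by 6557 of all genes and by 6 of the 31 markers. The summed level of the 31 genes was 173, 131 and 216 normalized CPM in XX1, XX2 and XX3. The granulosa genes Inha and Fst, which encode subunits or binders of activin and inhibin, Gatm and Wt1 had 0 UMIs, as did the collagen gene Col1a1 and the macrophage gene Cd68. Fshr, the receptor for follicle-stimulating hormone, was at 0.760. Of the 6 genes with at least 10 normalized CPM, the highest was the estrogen receptor gene Esr2 at 39.9 ± 17.5 (SD, n = 3), followed by the endothelial adhesion gene Pecam1 at 32.7 ± 15.01 and the nuclear receptor gene Nr5a2 at 25.5 ± 4.85. Kitl, the ligand of Kit, was at 16.8 ± 2.61, the aromatase gene Cyp19a1 at 15.6 ± 7.59 and the receptor gene Csf1r at 10.0 ± 4.24. Without XX3 the level of Csf1r was 7.59, below 10. The pools differed by at least 2-fold in Esr2, Pecam1, Cyp19a1 and Csf1r, which were highest in XX3 (chi-square test of UMI shares, adjusted p between 2.88e-12 and 0.00485). From which cells these molecules came was not tested, and in pooled cells fewer cells of a type and less RNA per cell cannot be told apart.

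Most of the 28051 genes in the normalized table were low. No UMI was found in any XX pool for 4549 genes, and another 6323 genes had 1 to 3 UMIs in all. A mean of at least 1 normalized CPM was reached by 14003 genes, of at least 10 by 6557, of at least 100 by 1197 and of at least 1000 by 119. The median over all genes was 0.998. Only 4 genes, Nlrp14, mt-Rnr2, Zp2 and Khdc1b, were above 10000. Without XX3 the counts of genes at or above 1, 10, 100 and 1000 were 14048, 6541, 1191 and 114.

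RNA molecules were concentrated in few genes. The 25 most abundant genes held 22.5%, 24.2% and 19.1% of gene UMIs in XX1, XX2 and XX3, and the 100 most abundant held 41.1%, 43.6% and 37.3%. The 1000 most abundant genes held 73.2 ± 1.93% (SD, n = 3). Both shares of the most abundant genes were lowest in XX3. When ranked without XX3, 23 of the 25 and 92 of the 100 genes were the same.

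**Figure D1:**
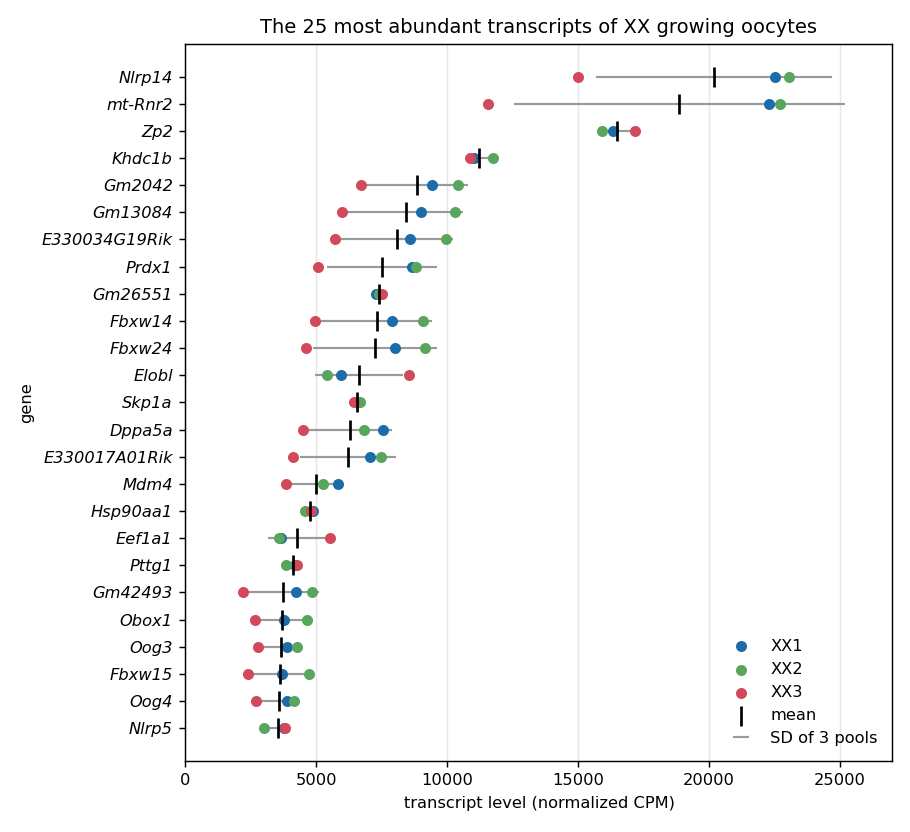
Levels of the 25 most abundant transcripts in normalized CPM, with 1 point for each of the 3 XX pools, a black bar for the mean and a grey line for the SD. Nlrp14 leads at 20189, XX3 is the lowest pool for most of these genes, and the points of Zp2, Khdc1b, Gm26551, Skp1a, Hsp90aa1 and Pttg1 lie close together.

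The most abundant transcript was that of Nlrp14, a maternal member of the NLRP family, at chr7:107166990-107198102 on the plus strand (GRCm38). Its level was 22519, 23043 and 15006 normalized CPM, which was 2.36 ± 0.435% of gene UMIs (SD, n = 3). mt-Rnr2, the large ribosomal RNA of the mitochondrion, had 22302, 22702 and 11554. Both were high in XX1 and XX2 and lower in XX3. In contrast, Zp2, which encodes the zona protein that sperm bind, had 16343, 15914 and 17150. In normalized CPM its pools were within 1.08-fold of each other. Khdc1b, an oocyte gene of the KH domain family, was likewise even, at 11009.6, 11732 and 10868.

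The next genes were of diverse kinds. Gm2042 (8843 ± 1929.9, SD, n = 3), Gm13084 (8419 ± 2196), E330034G19Rik (8068 ± 2165) and E330017A01Rik (6214 ± 1820.3) are protein-coding genes named only by clone or model numbers, and in each XX3 was the lowest pool. Prdx1, a peroxidase that removes hydrogen peroxide, was at 7503 ± 2109. Skp1a, the adaptor that joins F-box proteins to the cullin of SCF ubiquitin ligases, was at 6565 ± 127. Elobl was at 6625 ± 1665. Dppa5a, known from pluripotent cells, was at 6286 ± 1602. Mdm4, a regulator of p53, was at 4967 ± 1009, the chaperone gene Hsp90aa1 at 4753 ± 155, the translation elongation factor gene Eef1a1 at 4251 ± 1108 and the securin gene Pttg1 at 4097 ± 219.8. Of these, Elobl and Eef1a1 were highest in XX3, at 8522 and 5530, and Skp1a and Hsp90aa1 were nearly even.

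Genes of 6 rodent clusters or families known from oocytes made up 12.6%, 14.0% and 9.82% of gene UMIs in XX1, XX2 and XX3, although they numbered only 58 genes. They were the Fbxw, NLRP, oogenesin, Obox, Tcl1 and Oas1 genes, and they supplied 30 of the 119 genes at or above 1000 normalized CPM and 8 of the 25 most abundant ones. Because copies within a cluster are similar, reads can be assigned to the wrong copy, and the level of a single copy is less certain than the sum of its cluster.

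The Fbxw cluster encodes F-box proteins with WD40 repeats, a class of proteins that bring substrates to SCF ubiquitin ligases. Of its 16 genes, 15 lay within 0.651 megabases at chr9:109139447-109790670, and all 15 had at least 100 normalized CPM. A level of 1000 or more was found for 13 of them. Fbxw14 had 7894, 9076 and 4935 normalized CPM in XX1, XX2 and XX3, and Fbxw24 had 8020, 9140 and 4585. Fbxw15 was at 3597 ± 1179 (SD, n = 3) and Fbxw28 at 3174 ± 931, whereas Fbxw17 on chromosome 13 was at 2.53 ± 1.13. The median of the 16 genes was 2337, compared with 0.998 over all genes, and the family held 4.80 ± 1.27% of gene UMIs. All 16 genes were lower in XX3 than the mean of the other pools.

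Promoter sequences of 12 Fbxw genes on chromosome 9 and of the 4 oogenesin genes were given by RefSeq (GRCm38.p6). The copies of each family are among the most abundant transcripts and have similar promoters, and 5 Fbxw and 2 oogenesin promoters are shown. They are those of the 3 most abundant Fbxw genes, of Fbxw25, the least abundant of the 12, of Fbxw23, the only one of the 12 without the run described here, and of the more abundant pair of oogenesins. Fbxw23 is a transcribed pseudogene per Gencode. The 120 bases before the start are printed 5′ to 3′ on the strand of the gene. Capitals mark the longest run of bases held by at least 11 of the 12 Fbxw promoters, AAATCTTTGGC, and by all 4 oogenesin promoters, TTCAGCTGAAA. The first was found in 12 and the second in 10 of 27025 promoters of the same length on either strand, the family members included. These runs were chosen after the promoters were seen and are a description of similarity, not of binding sites.
Fbxw14, chr9:109287677-109287796, minus strand: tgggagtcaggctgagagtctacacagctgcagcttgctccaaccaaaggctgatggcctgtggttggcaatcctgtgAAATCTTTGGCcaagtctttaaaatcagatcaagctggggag
Fbxw24, chr9:109626060-109626179, minus strand: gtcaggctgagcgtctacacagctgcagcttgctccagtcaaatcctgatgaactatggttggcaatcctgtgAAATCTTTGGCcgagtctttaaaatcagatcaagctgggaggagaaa
Fbxw15, chr9:109568263-109568382, minus strand: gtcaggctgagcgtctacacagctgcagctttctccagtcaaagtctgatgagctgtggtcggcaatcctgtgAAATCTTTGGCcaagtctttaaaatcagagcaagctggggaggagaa
Fbxw25, chr9:109664653-109664772, minus strand: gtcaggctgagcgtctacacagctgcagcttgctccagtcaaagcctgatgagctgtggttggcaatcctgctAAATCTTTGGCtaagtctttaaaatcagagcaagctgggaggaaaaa
Fbxw23, chr9:109543190-109543309, minus strand: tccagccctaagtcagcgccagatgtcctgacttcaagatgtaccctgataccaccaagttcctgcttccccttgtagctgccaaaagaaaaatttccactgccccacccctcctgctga
Oog3, chr4:144162652-144162771, minus strand: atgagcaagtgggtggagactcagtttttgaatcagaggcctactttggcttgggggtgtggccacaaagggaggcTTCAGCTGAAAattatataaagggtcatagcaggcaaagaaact
Oog4, chr4:143450325-143450444, minus strand: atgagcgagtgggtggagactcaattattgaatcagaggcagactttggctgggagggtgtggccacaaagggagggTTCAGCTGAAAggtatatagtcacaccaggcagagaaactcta

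The run started 42 bases before the start in Fbxw14 and 47 bases before it in Fbxw24, Fbxw15 and Fbxw25. Fbxw25 carried it and was at 204 ± 59.6 normalized CPM (SD, n = 3), and Fbxw23, whose window does not hold it, was at 246 ± 53.8. Both levels were below those of the other genes whose promoters carried the run, which lay between 1564 and 7302. Since Fbxw23 alone lacked the run, whether the run goes with level was not tested. The E-box, CANNTG, the short motif that basic helix-loop-helix factors bind, was found in the 300 bases around the start in all 13 Fbxw promoters given, as against 72.1% of all promoters. For the 66 of the 100 most abundant nuclear genes with a promoter in RefSeq the share was 83.3%, and for cytosolic ribosomal proteins it was 49.2%. Over the wider group of genes at or above 10 normalized CPM it was 63.3%, below that of all promoters, and for genes with up to 3 UMIs it was 71.8%. TATAAA on the strand of the gene between 40 and 16 bases before the start was found in 4 of the 66 promoters (6.06%) and in 2.22% of all promoters, but in only 1.09% for genes at or above 10 and in 3.21% for genes with up to 3 UMIs. Neither share thus moved one way with level. No factor's binding was measured, and these shares describe letters only.

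The NLRP family, whose maternal members are cytoplasmic proteins of the oocyte and early embryo, had 18 genes in the table, of which 11 were at or above 100 normalized CPM and 8 at or above 1000. After Nlrp14 and Nlrp5 came Nlrp4f with 3689, 3847 and 2340, Nlrp4a at 2044 ± 497 (SD, n = 3) and Nlrp9c at 1811 ± 476. The members known from inflammasomes of immune cells were low, with Nlrp3 at 0.575, Nlrp6 at 0.990, Nlrp1a at 1.05 and Nlrp1b at 0 UMIs. The family held 4.27 ± 0.705% of gene UMIs, most of it from Nlrp14.

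Oogenesins, leucine-rich repeat proteins of the PRAME family, were high without exception. Oog3 and Oog4 were nearly equal, at 3634 ± 784 and 3570 ± 777 normalized CPM (SD, n = 3), as were Oog2 and Oog1 at 1371 ± 299.6 and 1360 ± 278. Within each of these pairs the difference was smaller than the spread between pools. Of the Obox homeobox genes, Obox1 had 3761, 4650 and 2658, Obox2 was at 1577 ± 433, Obox5 at 1349 ± 207 and Obox7 at 219 ± 71.2. Obox3, by contrast, was at 0.791, and Obox6 at 3.82. The Tcl1 cluster, related to a coactivator of the kinase Akt, was led by Tcl1b1 at 2438 ± 393, whereas Tcl1 itself was at 81.7 ± 45.1.

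The Oas1 cluster, named for the 2′-5′ oligoadenylate synthetases of the antiviral response, had a pattern of its own. Oas1e had 1624, 1338 and 2620 normalized CPM in XX1, XX2 and XX3, Oas1c had 743, 573 and 1381, Oas1d had 533, 658 and 1369, and Oas1h had 618, 583 and 1221. All 4 were highest in XX3. Oas1a, by contrast, had 0 UMIs and Oas1g 3 UMIs over the pools. These are members of a family known from interferon responses, yet the interferon response genes outside this cluster were far lower than Oas1e, Oas1c, Oas1d and Oas1h. Of 16 such genes in the table, the median was 2.71, compared with 0.998 over all genes. Only Irf1 exceeded 10, at 7.48, 4.90 and 21.3.

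**Figure D2:**
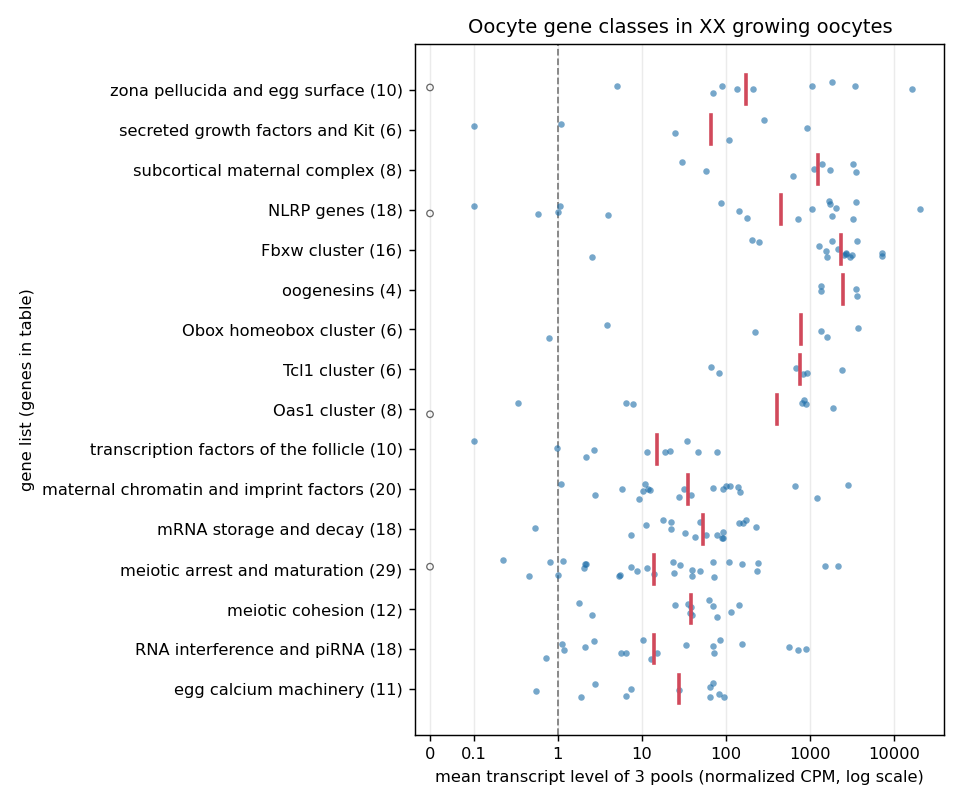
Mean level of each gene over the 3 XX pools, in normalized CPM on a log scale, for 16 oocyte gene lists with the number of genes in brackets. Red bars are list medians, the dashed line is the median of all genes (0.998), and open circles at the left are genes with 0 UMIs. The Fbxw cluster (median 2337) and the oogenesins (median 2471) lie furthest to the right.

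Transcripts for the egg surface differed widely in level. The zona pellucida of the mouse is built from the products of Zp1, Zp2 and Zp3. Zp2 was at 16469 ± 628 normalized CPM (SD, n = 3), whereas Zp3 was at 89.4 ± 57.1 and Zp1 at 69.8 ± 36.9. The ratio of Zp2 to Zp3 was 253, 325 and 111 in XX1, XX2 and XX3, and that of Zp2 to Zp1 was 332, 332 and 153. Zp1 had 49.2, 48.0 and 112 in the pools, so that both Zp1 and Zp3 were highest in XX3 while Zp2 stayed even. Transcripts of Zp3 and Zp1 had a GC content of 57.1% and 55.2%, compared with 45.4% for Zp2. Whether base composition has a part in these levels was not tested.

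The promoter of Zp3 is shown because the zona genes are known targets of the oocyte factor FIGLA, which binds E-boxes. The 250 bases before the start are printed with each CANNTG in capitals. Promoters of Zp1 and Zp2 were not analysed here.
Zp3, chr5:135979855-135980104, plus strand (GRCm38.p6, RefSeq): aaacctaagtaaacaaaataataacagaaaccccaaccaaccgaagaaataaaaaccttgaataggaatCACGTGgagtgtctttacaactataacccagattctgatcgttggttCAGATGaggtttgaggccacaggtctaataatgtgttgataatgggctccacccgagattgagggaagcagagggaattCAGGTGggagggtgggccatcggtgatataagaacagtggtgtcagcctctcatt

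The window held 3 E-boxes, whose first bases were 181, 134 and 55 bases before the start. Figla itself was at 9.26, 9.10 and 15.8 normalized CPM. Other genes of the egg surface included the oocyte-secreted proteins Oosp1 with 3938, 4242 and 2225, Oosp3 at 1836 ± 408 (SD, n = 3) and Oosp2 at 1050 ± 266. Astl, which encodes the protease that cleaves ZP2 after fertilization, was at 209.8 ± 39.2. For fusion with sperm, the tetraspanin gene Cd9 had 75.5, 62.7 and 270, the sperm receptor gene Izumo1r, also called Juno, had 5.70, 3.50 and 5.79, and Cd81 had 0 UMIs. Cd9 was thus higher in XX3 than in the other pools, whereas Izumo1r was low in all pools.

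Among the secreted factors, Bmp15, an X-linked ligand that acts with GDF9 on granulosa cells, had 904, 809.9 and 1068 normalized CPM. Its level was above that of Gdf9 in every pool. Kit, the oocyte's receptor for the granulosa ligand, was at 116, 89.3 and 122, and Bmp6 at 24.5 ± 7.60 (SD, n = 3). Fgf8 was at 1.10 and Fgf10 had 1 UMI in all.

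The subcortical maternal complex, a protein assembly under the oocyte membrane that the embryo needs to divide, had all 8 listed members above 10 normalized CPM, with a median of 1264. Nlrp5 and Nlrp4f led, and Nlrp2 was at 1726 ± 428 (SD, n = 3), Zbed3 at 1404 ± 202 and Ooep at 633 ± 126. Padi6, a peptidylarginine deiminase of the cytoplasmic lattices, had 771, 838 and 1764. Tle6 was at 57.6 ± 18.8 and Khdc3, also called Filia, at 30.4 ± 8.24. The members of this complex therefore ranged over more than 100-fold in transcript level.

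Transcription factors of the follicle were moderate, with a median of 15.1 normalized CPM over 10 genes and none at or above 100. Nobox, a homeobox factor of the early follicle, had 62.0, 67.2 and 109. Foxo3, which holds primordial follicles dormant, was at 46.9 ± 7.86 (SD, n = 3), the TBP paralog gene Tbpl2 at 34.7 ± 14.4, Lhx8 at 21.8 ± 5.10 and Taf4b at 18.8 ± 3.01. The early factors Sohlh1 and Sohlh2 were low, with 1 UMI in all for Sohlh1 and 2.71 ± 1.44 for Sohlh2. Pou5f1, also called Oct4, was at 0.981, and Gata4, known from granulosa cells, at 2.18.

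Factors of chromatin and imprinting were present throughout, as all 20 genes of the list had at least 1 normalized CPM. Behind Dppa3, Npm2, a histone chaperone of the egg nucleus, had 976, 916 and 1771, and Dnmt1, which maintains DNA methylation, had 533, 471 and 977. Kdm1b, the histone demethylase needed to set maternal imprints, was even at 152, 140.1 and 148. The imprint guardian gene Zfp57 was at 137 ± 32.0 (SD, n = 3), and the oocyte linker histone gene H1foo at 112 ± 37.3. Of the enzymes that set methylation anew, Dnmt3a was at 27.7 ± 4.38, its cofactor gene Dnmt3l at 10.3 ± 5.32 and Dnmt3b at 2.80 ± 0.0539.

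The genes of meiotic arrest and maturation were uneven. Ccnb1, the cyclin of maturation promoting factor, was at 1926, 1883 and 2697 normalized CPM, and its kinase gene Cdk1 was at 17.1, 23.1 and 45.7. Wee2, the oocyte kinase that keeps CDK1 inhibited, had 1576, 1556 and 1463. Aurkc followed at 242 ± 93.4 (SD, n = 3) and the checkpoint kinase gene Ttk at 236 ± 61.3. Pde3a, the phosphodiesterase that lowers cAMP at maturation, was at 110.3 ± 11.8. By contrast, the receptor gene Gpr3, which keeps cAMP high, had 2 UMIs in all, Gpr12 had none, and Mos was at 2.16 ± 0.548. Gpr3 and Gpr12 were thus at or under the limit of 3 UMIs, and their levels were not detectable here. Whether depth or the capture of their 5′ ends has a part in this was not tested.

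Genes that store, guard or degrade RNA were mostly present. Dicer1, whose product makes small interfering RNAs in mouse oocytes, was at 889.9 ± 144 normalized CPM (SD, n = 3), Gtsf1 at 727 ± 14.9 and the germ cell helicase gene Ddx4 at 569 ± 140. Tdrd1 was at 154 ± 31.5. In the list for mRNA storage and decay, the deadenylase genes Cnot6l and Cnot7 were at 227 ± 28.0 and 173 ± 35.8, the adaptor gene Btg4 at 159 ± 31.0 and the translational regulator gene Dazl at 142.5 ± 12.1. Of 18 genes in this list, 16 had at least 10. Cohesion genes, which hold sister chromatids through the arrest, had 10 of 12 at or above 10, with Esco2 at 142 ± 8.78, Stag1 at 115 ± 20.2, Smc1a at 79.2 ± 13.6 and Esco1 at 69.9 ± 10.5. The calcium machinery of the egg was led by the receptor gene Itpr2 at 94.7 ± 34.6 and the channel gene Trpm7 at 83.3 ± 17.8, followed by Atp2b1 at 70.4 ± 9.60 and Itpr1 at 64.5 ± 13.8.

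Transcripts best known from other stages or from sperm were found in part. Of 16 genes of early meiotic prophase, Sycp1 of the synaptonemal complex was at 499, 429 and 939.6 normalized CPM, Sycp2 at 82.9 ± 15.7 (SD, n = 3), Sycp3 at 47.1 ± 12.1 and Syce2 at 39.5 ± 6.31, and 4 genes were below 1. Msh4 (16.003), Msh5 (15.04) and Mlh3 (14.9), which act in recombination, were lower. Among 10 genes of sperm differentiation, Ldhc, the lactate dehydrogenase best known from testis, had 542, 473 and 395, and the flagellar genes Odf2 and Akap4 were at 22.0 and 18.9. Genes of the later burst of zygotic transcription were low, as 8 of 15 had at most 3 UMIs and none reached 10, the highest being Tcstv3 at 8.96, Tcstv1 at 8.47 and Zscan4d at 6.32. Of the pluripotency and primordial germ cell genes, 5 besides Dppa5a exceeded 10, namely Prdm1 (30.1), Esrrb (14.5), Tfap2c (11.8), Lin28a (10.8) and Prdm14 (10.4, and 8.13 without XX3), while Klf2 and Dnd1 had 0 UMIs.

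Glycolysis and pyruvate use were seen at different levels. Ldhb, the lactate dehydrogenase subunit known for turning lactate into pyruvate, had 1046, 829 and 1803 normalized CPM, and Ldha had 0 UMIs. Pgk1 followed at 112 ± 15.5 (SD, n = 3), Pfkm at 23.0 ± 5.77 and Pkm at 8.09 ± 6.98, whereas Gapdh was at 4.00 ± 2.35, Aldoa at 0.959, Hk2 at 0.540 and Eno1 at 0.337. Of 18 genes of glycolysis in the table, 3 had at least 10. Of 12 genes for entry of pyruvate into mitochondria, 7 had at least 10 and none was below 1. Dld, a subunit shared by pyruvate dehydrogenase and related complexes, had 373, 384 and 421, Pdhx was at 45.5 ± 11.5, Pdha1 at 31.5 ± 4.66 and Dlat at 20.1 ± 2.39. The kinase genes Pdk3 and Pdk1, whose products switch the complex off, were at 22.7 ± 4.10 and 4.96 ± 1.21, and the phosphatase gene Pdp1 was at 22.0 ± 1.96. The mitochondrial carrier genes Mpc1 and Mpc2 were at 15.9 ± 7.03 and 1.56 ± 0.517. Pdhb was at 8.18 ± 1.76, and the monocarboxylate transporter genes Slc16a1 and Slc16a7 were at 8.59 ± 2.44 and 2.39 ± 1.29.

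Cholesterol synthesis and amino acid transport, which granulosa cells are known to carry out for the oocyte, differed in level. Of 22 genes of cholesterol synthesis, 11 had at least 10 normalized CPM, led by Nsdhl at 221 ± 39.1 (SD, n = 3), Hmgcs1 at 160.2 ± 44.5, Srebf2 at 112 ± 52.4 and Fdps at 93.4 ± 36.2. Mvd had 0 UMIs. Of 11 amino acid transporter genes, only Slc7a6 reached 10, at 10.4 ± 2.13 (9.19 without XX3), followed by Slc7a1 at 8.89, Slc3a2 at 4.40 and Slc7a5 at 3.88, and Slc38a2 had 0 UMIs.

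**Figure D3:**
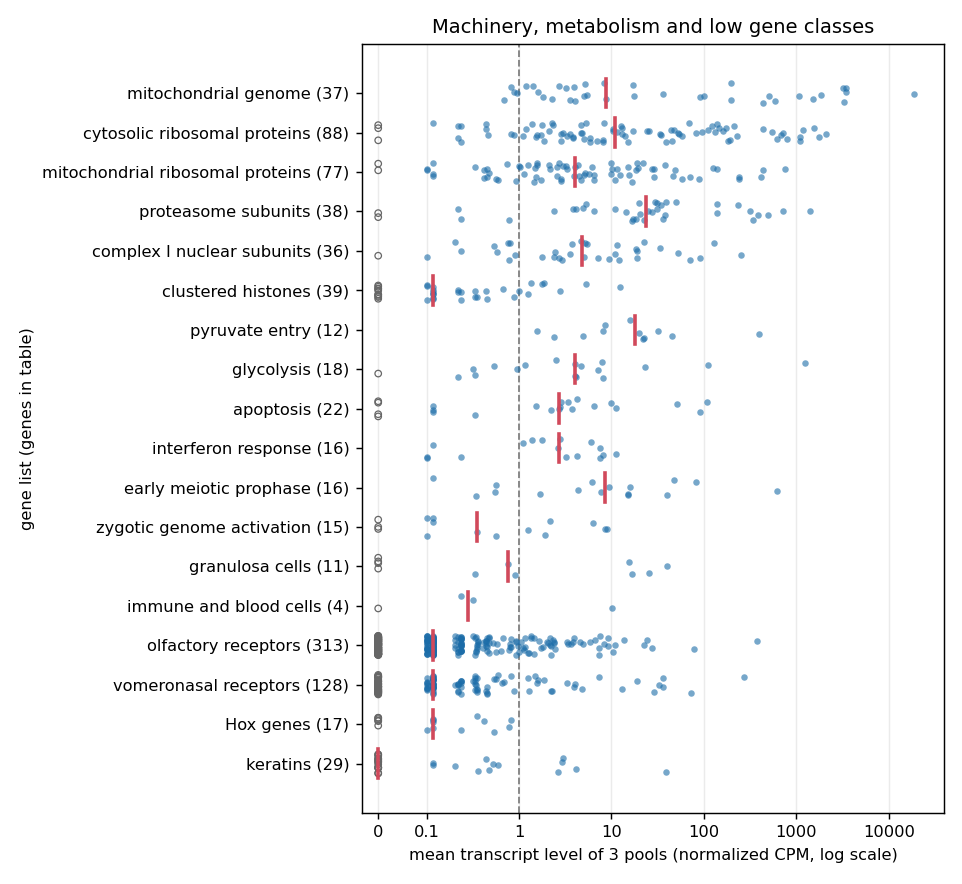
Mean level of each gene over the 3 XX pools, in normalized CPM on a log scale, for 18 lists of machinery, metabolism, other stages, other cells and receptor families, with the number of genes in the table in brackets. Red bars are list medians, the dashed line is the median of all genes (0.998), and open circles at the left are genes with 0 UMIs. Members of 1 machine, such as the cytosolic ribosomal proteins, range from 0 UMIs to 2088.

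Subunits of a single machine, which the cell is known to need in similar amounts, had very different levels of 5′ UMIs. Of 88 genes matched by their symbols to cytosolic ribosomal proteins, 82 are protein-coding in Gencode and 6 are pseudogenes, which were left out here. Rps4x was highest at 2376, 2064 and 1825 normalized CPM, followed by Rpl5 at 1771 ± 222 (SD, n = 3), Rpl17 at 1537 ± 250 and Rpl7 at 1173 ± 365. The median of the 82 genes was 13.01, and Rplp0 and Rpl29 had 0 UMIs. From the 10th to the 90th percentile the levels ran from 0.914 to 673, and the highest gene was 160.5-fold above the median. The same held for proteasome subunits, with Psma2 at 1422 ± 120, Psmb7 at 719 ± 170, Psmc6 at 489.9 ± 92.9 and Psma4 at 384 ± 77.1. Psmd3, by contrast, had 0 UMIs. Mitochondrial ribosomal proteins ranged from 0 UMIs for Mrpl2 and Mrpl28 to 752 ± 130 for Mrpl48, above Mrpl24 at 440.2 ± 72.1, Mrps33 at 419 ± 29.0 and Mrpl42 at 241 ± 68.8. Subunits of complex I ranged from 0 UMIs for Ndufs7 to 251 ± 13.8 for Ndufa4, above Ndufb3 at 129.9 ± 4.604, and those of the ATP synthase from 0.555 to 543 ± 45.1 for Atp5h. Of the factors of translation, Eif4e was at 1647 ± 348, Eif4a2 at 427 ± 22.8 and Eif3e at 281 ± 22.3, while Eif2b2, a subunit of the exchange factor eIF2B, was at 0.437. Next to Eef1a1 the elongation genes were low, with Eef1d at 33.6 ± 27.1.

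Level moved with base composition. Over 10725 protein-coding genes at or above 1 normalized CPM, the Spearman correlation across genes between level and GC content of the transcript was -0.36. The median GC content was 51.0% for genes of 1 to 10, 47.4% for those of 10 to 100, 45.4% for those of 100 to 1000 and 44.1% for those of 1000 to 10000. Among the 82 protein-coding ribosomal protein genes the correlation was -0.70, among mitochondrial ribosomal proteins -0.64, among proteasome subunits -0.76 and among 55 protein-coding genes of translation initiation -0.53. For the GC content of the first 200 bases, nearest the 5′ end, it was weaker, at -0.18 over the 10725 genes and -0.56, -0.51, -0.69 and -0.41 in these 4 lists. Genes are not independent replicates and share the library, so that these correlations are descriptions. Rps4x and Rpl5 had a GC content of 45.4% and 43.4%, and Rplp0 and Rpl29 had 58.1% and 57.7%. Whether base composition affected the capture of 5′ ends, and so the levels of single genes, was not tested.

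**Figure D4:**
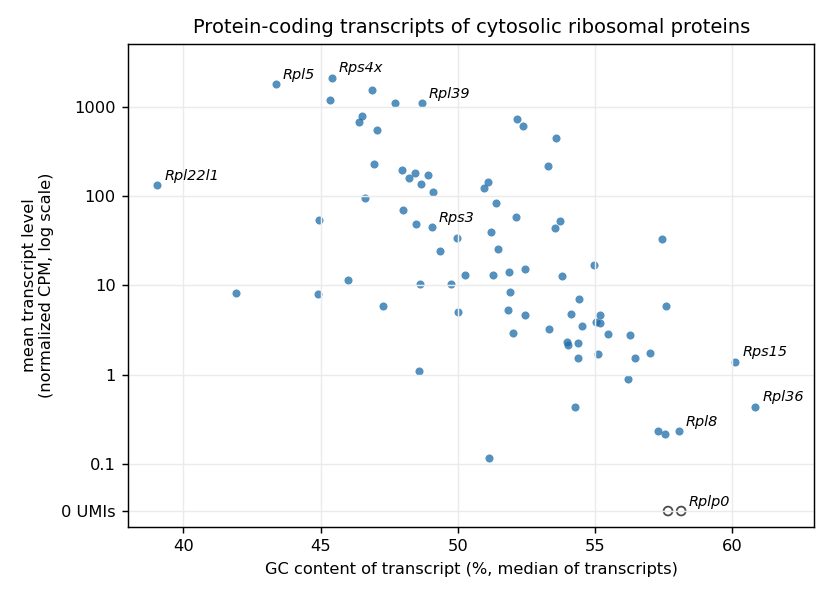
Mean level of 82 protein-coding transcripts of cytosolic ribosomal proteins over the 3 XX pools, in normalized CPM on a log scale, against the GC content of their transcripts in percent. Each point is 1 gene, and open circles are the 2 genes with 0 UMIs. Levels fall from left to right, with a Spearman correlation of -0.70 across genes.

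Replication-dependent histones were nearly undetected. Of all 28051 genes, 10872 had at most 3 UMIs over the pools and 4549 had none. Of 39 histone genes in the table, 27 had at most 3 UMIs over the pools and 10 had none (Hist1h2ba, Hist1h4c, Hist1h4h, Hist2h2aa2, Hist2h2ac, Hist1h3a, Hist1h3c, Hist3h2bb-ps, Hist1h2al and Hist1h3d). The highest, H1f0, which is not a replication histone, was at 12.4 ± 3.74 normalized CPM (SD, n = 3), above Hist1h2bc at 5.27, Hist2h4 at 2.77 and Hist2h2bb at 1.86. The labels give polyA RNA as the molecule, and mRNAs of replication-dependent histones are known to lack a poly(A) tail. Whether this has a part in their low counts was not tested. Tubulins were moderate, led by Tubb4b at 68.5 ± 8.07, Tuba1c at 35.7 ± 16.6, Tuba1b at 32.1 ± 11.8 and Tubb2a at 26.5 ± 2.57, and Tuba3b had 0 UMIs. Of 64 rodent zinc finger genes, 42 were at or above 10, and the highest were Zfp978 at 821 ± 28.6, Zfp979 at 425 ± 8.81, Zfp957 at 264.5 ± 51.3 and Zfp951 at 233 ± 66.4, while Zfp983 and Zfp995 had 0 UMIs.

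Transcripts of the mitochondrial genome made up 5.09%, 5.55% and 3.01% of gene UMIs in XX1, XX2 and XX3. After mt-Rnr2, the small ribosomal RNA mt-Rnr1 had 4354, 3591 and 2449 normalized CPM, mt-Cytb had 3584, 4708 and 1989, and mt-Atp8 had 3678, 4289.8 and 1886. XX3 was the lowest pool in each of them. The ribosomal RNAs of mitochondria alone held 2.60 ± 0.745% (SD, n = 3). By gene type, protein-coding genes held 83.8 ± 0.537% of UMIs, long noncoding genes 9.45 ± 0.629%, pseudogenes 2.16 ± 0.116% and loci that Gencode marks as awaiting experimental evidence (TEC) 1.78 ± 0.733%.

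Several noncoding transcripts were as abundant as the leading coding ones. Gm26551, a long intergenic RNA on chromosome 11, had 7293, 7402 and 7501 normalized CPM. On this scale it was the most even of the 25 most abundant genes, while its UMI shares were 0.821%, 0.864% and 0.935%. Gm42493, an antisense RNA on chromosome 9, had 4209, 4816 and 2187, and Gm43069, an antisense RNA on chromosome 5, had 2819.99, 2492 and 5161. The 2 antisense RNAs thus differed between pools in opposite directions. Gm42493, at chr9:109448645-109460105, lies within the span of the Fbxw cluster, whose genes were also lower in XX3. Gm43069, at chr5:120777796-120805623, overlaps Oas1e and Oas1c, which were also higher in XX3. Whether these RNAs varied independently of the clusters was not tested. In contrast, noncoding RNAs known from many cell types were low, with Gas5 at 45.5 ± 6.96 (SD, n = 3), Snhg1 at 41.8 ± 13.9, Malat1 at 32.8 ± 11.3, Snhg5 at 29.0 ± 5.89, Kcnq1ot1 at 5.29 ± 2.02 and Snhg6 at 2.27 ± 0.667. Xist, which silences 1 of the X chromosomes in somatic female cells, its antisense partner Tsix, and Neat1 had 0 UMIs in all XX pools, while Meg3 had 3, Rpph1 2 and Rmrp 1. A count of 0 over the pools allows up to 0.337 normalized CPM.

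By chromosome, 7 and 9 held the largest shares of gene UMIs, 11.1 ± 0.306% and 10.7 ± 1.10% (SD, n = 3), with 8.35% and 5.83% of the genes in the table. Chromosome 7 carries Nlrp14, Zp2 and the Obox genes and chromosome 9 the Fbxw cluster. The X chromosome held 3.17 ± 0.0949% of UMIs and 3.74% of the genes. Its most abundant transcripts were Rps4x, Rpl39 at 1309.7, 1291 and 682 normalized CPM, Bmp15, Xlr5a at 739 ± 92.9 and Taf9b at 728 ± 84.0.

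Tissue genes and receptor families were low with a few exceptions. Of 313 olfactory receptor genes in the table, 125 had 0 UMIs and 238 had at most 3, compared with 4549 and 10872 of all 28051 genes. Olfr976, however, had 400.4, 458 and 277 normalized CPM, followed by Olfr1340 at 77.3 ± 16.2 (SD, n = 3), Olfr214 at 27.2 ± 6.38 and Olfr667 at 24.1 ± 5.22. Olfr624, Olfr916, Olfr1198 and Olfr701 lay between 10.3 and 22.6, of which Olfr701 was at 9.38 without XX3. Of 128 vomeronasal receptor genes, 96 had at most 3 UMIs and Vmn1r139 had 304, 319 and 182. Vmn2r118 was at 73.0 ± 25.0, Vmn2r25 at 36.4 ± 5.49 and Vmn2r58 at 35.8 ± 14.6, and Vmn2r87, Vmn2r21, Vmn2r60 and Vmn1r62 lay between 12.9998 and 32.6. None of the 17 Hox genes in the table reached 1. Of 64 cytochrome P450 genes, 29 had at most 3 UMIs, and the highest were Cyp2c29 at 124 ± 11.2, Cyp4a14 at 118 ± 29.3, Cyp39a1 at 103 ± 6.05 and Cyp2j12 at 91.4 ± 35.9. Cyp2b13, Cyp7b1, Cyp20a1, Cyp2b23 and Cyp27a1 lay between 10.1 and 23.5. Of these, Cyp27a1 had 2.49, 7.70 and 20.1 in XX1, XX2 and XX3, so that its mean was 5.10 without XX3.

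Smaller families also had members above 10 normalized CPM, a level reached by 6557 of all 28051 genes. Among 29 keratins this was Krt12 at 38.8 ± 10.0 (SD, n = 3), and among 16 chemokine ligands Ccl25 at 15.8. Among 13 claudins these were Cldn14 at 22.8 and Cldn8 at 17.3, and among 24 defensins Defb8 at 14.0 and Defb50 at 10.1. Of 26 interleukin genes 6 exceeded 10, a share near that of all genes. They were Il20 at 39.2, Il17f at 20.1, Il7 at 19.3, Il33 at 15.5, Il18 at 12.9 and Il1a at 12.4. Among the markers of other tissues, Syt1 of neurons was at 32.0 and Vil1 of gut at 17.8, and no muscle gene reached 10. The liver genes Alb and Fgb had 0 UMIs. The table holds genes with at least 1 UMI in the study, so that members outside it were not analysed here and the shares above overstate how often a family is detected.

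Genes of apoptosis differed in level. Bcl2l10, an antiapoptotic member, had 107, 101 and 119 normalized CPM, and Mcl1 was at 11.3 ± 4.46 (SD, n = 3). The proapoptotic genes Bax, Bad, Bik and Pmaip1 had 0 UMIs in all pools. Casp8 was at 90.8 ± 12.6, and Trp63, whose product guards the oocyte genome, at 51.6 ± 6.64. Of the 22 genes, 4 had at least 10 and 8 had at most 3 UMIs, compared with 6557 and 10872 of all 28051 genes. The genes named are the 4 highest and the 4 at 0 UMIs, so that they do not describe the BCL2 family as a whole.

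The spread between pools was tested against counting error. For each of 12367 genes with at least 15 UMIs, a chi-square test asked whether the UMI share was equal in the pools. After Benjamini-Hochberg adjustment 3700 genes, 29.9% of those tested, were called different, and 1637 genes, 13.2%, were also at least 2-fold apart between the highest and the lowest pool. Of the 1637 genes, 960 were highest and 538 lowest in XX3. Without XX3, 697 of 10836 genes (6.43%) were called and 156 (1.44%) were also 2-fold apart. The common biological coefficient of variation from edgeR was 22.6% over 8893 genes, and it was 10.8% without XX3. A call says that UMI shares differed between pools by more than counting error, and with deep counts the difference can be small. For Gm26551 the UMI shares were 0.821%, 0.864% and 0.935% in XX1, XX2 and XX3 (chi-square test, adjusted p = 9.95e-42). In normalized CPM, a scale that this p-value does not use, its ratio of highest to lowest pool was 1.03.

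Most genes of the 6 oocyte families were called, compared with 29.9% of all genes tested, while the share that was also 2-fold apart varied. The test calls smaller ratios in genes with more UMIs, and the families were not compared with other genes of similar counts. Of the 16 Fbxw genes tested 15 were called and 2 were 2-fold apart (12.5%, near the 13.2% of all genes). Of 13 NLRP genes 12 were called and 1 was 2-fold apart, and of 6 Tcl1 genes all were called and 1 was 2-fold apart. All 4 oogenesins and 4 of 5 Obox genes were called and none was 2-fold apart. All 6 Oas1 genes tested were called and 5 were 2-fold apart. Of 69 protein-coding ribosomal protein genes tested, 43 were called and 18 were 2-fold apart. Between XX1 and XX2 alone, 6.43% of all genes tested were called by the chi-square test. The calls there were 14 of 16 Fbxw, 5 of 13 NLRP, 3 of 4 oogenesin, 4 of 5 Obox, 2 of 6 Tcl1, 3 of 6 Oas1 and 9 of 63 ribosomal protein genes. None of these family or ribosomal protein genes was called and 2-fold apart there.

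XX3 differed from the other pools in the same direction in most genes of some families and in mixed directions in others. The difference between XX3 and the mean of XX1 and XX2, on the log2(normalized CPM + 0.5) scale, had a median of -0.04 over all genes tested. It was -0.76 in the Fbxw cluster, with all 16 genes lower in XX3, and -0.82 in the mitochondrial genome, with all 30 genes tested lower. It was -0.67 for NLRP genes (12 of 13 lower), -0.60 for Obox genes (5 of 5) and -0.57 for oogenesins (4 of 4). The Tcl1 cluster was mixed, at -0.42 with 4 of 6 lower, as the difference was -0.51 for Tcl1b4 and 1.26 for Tcl1. The subcortical maternal complex had 4 genes higher and 4 lower (median 0.03), and the protein-coding ribosomal protein genes 40 higher and 29 lower. The Oas1 cluster, at 1.05 with 6 of 6 genes higher, lay on the other side, as did the interferon response genes at 0.59 (7 of 10 higher), the transcription factors of the follicle at 0.58 (6 of 8) and the genes of meiotic arrest and maturation at 0.50 (15 of 23). Markers of granulosa cells were at 0.65 (3 of 4 higher) and those of theca and steroid cells at -0.86 (2 of 5 higher), and the summed level of the 31 markers of other ovarian cells was highest in XX3, at 216 as against 173 and 131. Whether other ovarian cells have a part in the difference of XX3 was not tested. The difference between XX1 and XX2 had a median of 0.19 over all genes and -0.21 for Fbxw, 0.00 for NLRP and 0.18 for Oas1 genes. With UMIs scaled to the library total alone, in place of normalized CPM, the median of all genes moved by 0.12. The medians were then -0.64 for Fbxw, -0.70 for mitochondrial and 1.17 for Oas1 genes. The medians of the other lists named here kept their sign. The pools had 208, 161 and 489 gene UMIs per spike-in UMI, whereas in normalized CPM 1 UMI was worth least in XX3. Levels scaled to equal numbers of spike-in UMIs were not computed, and directions on such a scale were not tested.

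**Figure D5:**
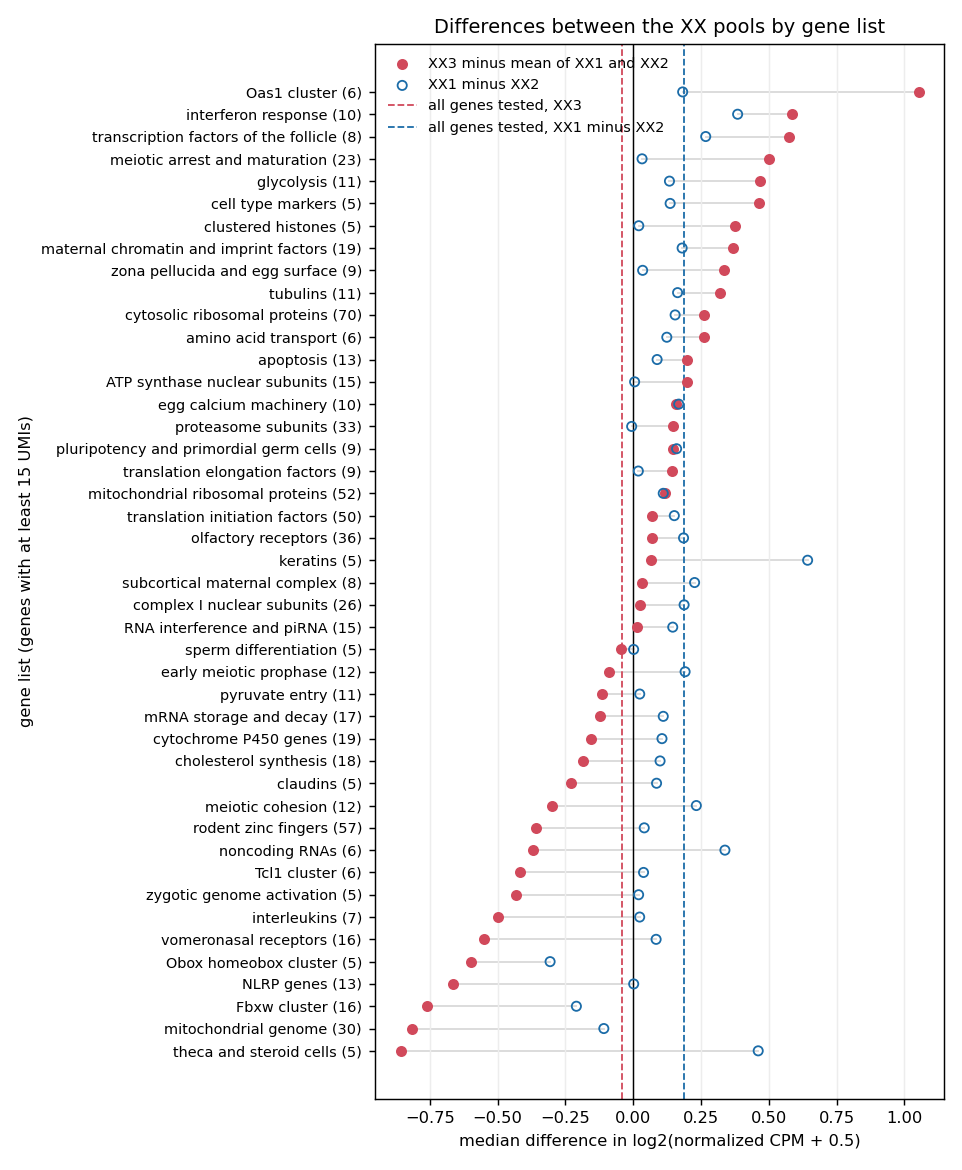
Median difference in log2(normalized CPM + 0.5) for each list with at least 5 genes tested, given in brackets. Filled red points are XX3 minus the mean of XX1 and XX2, open blue points are XX1 minus XX2, and the dashed lines are the medians of all genes tested (-0.04 and 0.19). The Fbxw cluster (-0.76) and the mitochondrial genome (-0.82) lie far to the left for XX3 and the Oas1 cluster (1.05) far to the right.

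GC content moved with the difference of XX3 as well. When 9699 protein-coding genes with at least 15 UMIs were divided into 5 groups by transcript GC, the median difference of XX3 was -0.25 in the lowest group, up to 43.8% GC, and 0.19 and 0.12 in the highest groups. The Spearman correlation across genes was 0.23, compared with 0.12 for the difference between XX1 and XX2. Whether RNA content per oocyte, stage within the size range, spike-in amount or base composition has a part in the difference was not tested.

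The 10 genes with the widest spread, among those with a mean of at least 50 UMIs a pool, were mostly single high values of XX3. The exceptions were Dppa5b, at 58.8, 10.9 and 2.44 normalized CPM, and Dppa5c, at 76.6, 25.9 and 15.8, copies close to Dppa5a for which reads may be shared. They were highest in XX1. Gckr, the regulator of glucokinase, had 7.84, 6.65 and 34.4, the splicing gene Phf5a had 17.8, 18.9 and 87.1, and the proteasome gene Psmb3 had 11.4, 7.35 and 35.9. In Rps3, of the small ribosomal subunit, the values were 22.1, 20.3 and 92.6. Gm26728, AC118476.3, Gm1070 and Tmem50a had ratios of highest to lowest pool between 4.54 and 5.05. Zp3, Zp1 and Cd9 shared this pattern at ratios of 3.16, 2.34 and 4.31, and without XX3 their XX1 and XX2 values lay within 1.32-fold of each other.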

How the data were processed

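The 3 XX samples of the 9 in the series were analysed. The authors aligned stranded paired-end Smart-seq3 reads with Hisat2 to GRCm38 and Gencode (release not given in the sources used here) and deposited counts of 5′ UMIs per gene. They also deposited a spike-in normalized CPM matrix, a signal that equals the counts times 1 constant per sample, and a log2 matrix with batch effects regressed out, used here only as an alternative. The count table had 28132 entries, of which 28051 genes, each with at least 1 UMI in the study, were used. The other entries were 79 spike-ins and 2 entries absent from the normalized table. In Gencode vM21, 99.8% of genes were found, which gave gene type and transcripts. GC content is the median over the transcripts of a gene.

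Means and SDs of 3 pools describe levels. The spread was tested by chi-square on counts (scipy 1.17.1, genes with at least 15 UMIs, Benjamini-Hochberg, adjusted p under 0.05) and described with edgeR 4.0.16 dispersion. The test was checked on simulated data. Other size factors (the spike-ins, TMM, DESeq2 1.42.0), other minimum counts and leaving out each pool served as alternatives. Promoters are from RefSeq (GRCm38.p6).

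The gene lists were chosen with earlier results of these data known. Genes were named from among the 25 most abundant genes, the markers, the 4 highest members of each list, members at 0 UMIs in lists of expressed genes, members of at least 10 normalized CPM in silent lists, all members of 6 lists (egg surface, secreted factors, subcortical maternal complex, transcription factors, pyruvate entry, noncoding RNAs) and the 10 genes of widest spread. Others were named after their values were seen.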

Additional observations from a re-analysis of the deposited data

How the results depend on the processing

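Levels of the genes at or above 1 and 10 normalized CPM, the genes with UMIs in each pool and the shares of the 25 and 100 most abundant genes stayed within 1.5 times or 1 SD of their values under UMIs scaled to the library total, the batch-regressed log2 values, thinning, a minimum of 5 UMIs, leaving out mitochondrial genes and leaving out each pool. The count of genes 2-fold apart between pools fell from 1637 to 593 when at least 150 UMIs were asked for, a setting that tests fewer genes. When each XX pool was left out in turn, the genes called numbered 697 to 3325, those 2-fold apart 156 to 1255, and the biological coefficient of variation was 10.8 to 26.8%, the lowest values being those without XX3. With the spike-in factors of the authors, TMM or DESeq2 size factors, 3922, 3614 and 3593 genes were called. Under UMIs scaled to the library total the medians of 39 lists were 1.146 to 1.197 times those given, and leaving out 1 pool changed them by factors between 0.480 and 1.23. No paired analysis was possible because only the XX group was analysed. Depth limits what can be said of the 10872 genes with at most 3 UMIs.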
